A study of Canis lupus familiaris with 15 samples.

Results

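B2M and OAS2 are genes of antigen display and antiviral defence, and their RNA was set side by side in 3 lines grown from dog mammary tumours. Every array probe whose gene symbol was B2M or OAS2 was taken. These were 3 of 22176 probes, 2 for B2M and 1 for OAS2, and they gave 2 of the 5246 named genes. All 3 probes had a value on every array, so no filter removed a member.

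B2M encodes beta-2-microglobulin, the invariant light chain that pairs with the heavy chain of class I major histocompatibility molecules. Without it most class I molecules do not reach the cell surface with their peptide. OAS2 encodes a 2'-5'-oligoadenylate synthetase, an enzyme that binds double-stranded RNA and makes short adenylate chains that activate RNase L. Interferons induce OAS2 strongly and raise class I genes, B2M included, in many cell types.

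P114 came from a primary mammary anaplastic carcinoma, CMT-U229 from a benign mixed tumour and CMT-U335 from a primary osteosarcoma of the mammary gland. The cells were grown to near confluence, and the labels name no treatment, so any interferon exposure is not given in the sources used here. Each of 15 arrays with 2 dyes carried a pair of lines, P114 over CMT-U335, P114 over CMT-U229 or CMT-U229 over CMT-U335, with 5 arrays per pair. Each line stands for 1 tumour, and whether the 5 replicates of a pair were separate cultures is only partly given: the labels call them biological replicates, whereas the series design counts at least 1 biological replicate plus dye swaps.

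All values are log2 ratios, the first-named line over the second, so 1 unit is a 2-fold difference. Their direction is likely and not settled: no source says which dye is on top, and Cy5 was assumed. With Cy3 on top, every sign would turn. On this reading the epithelial genes KRT18 and EPCAM were higher in the carcinoma line than in CMT-U335, at 3.48 ± 0.19 and 3.55 ± 0.15 (SE, n = 5). The type I collagen gene COL1A2, a bone matrix gene, was lower at -1.39 ± 0.14. The bone matrix gene SPP1 (osteopontin) went against the label of the osteosarcoma line, at 4.12 ± 0.18 in P114 over CMT-U335. Of 5 bone markers measured, 2 (SPP1 and SPARC) were called higher in P114 and 1 (COL1A2) lower. Means and standard errors (SE) come from limma, and called genes are those with an adjusted p (Benjamini-Hochberg, over all genes) under 0.05. Ratios alone give neither an absolute level nor the distance of a spot from background. In a bulk extract of a line, fewer cells that express a gene and less of its RNA per cell cannot be told apart.

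Some arrays resembled each other beyond their pair. In genes that varied between arrays and stood in none of the lists, the arrays of opposite dyes that lay closest were replicates 1 and 3 and replicates 2 and 5 in P114 over CMT-U229, where a median share of 0.051 of a gene's sum of squares lay within these couples. They were 2 and 3 and also 4 and 5 in CMT-U229 over CMT-U335 (0.123), and less clearly 1 and 3 and 4 and 5 in P114 over CMT-U335 (0.402). The next best grouping had shares of 0.381, 0.403 and 0.484 in these pairs, in that order. In P114 over CMT-U335 the couples thus hardly stood out. Whether these couples are dye swaps of the same RNA is not given in the labels. If they are, a pair holds 3 separate samples, so means with the couples averaged stand beside the results they change. P-values measure the spread between arrays, which may be technical.

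B2M was highest in the benign tumour line CMT-U229. In P114 over CMT-U229 it stood at -2.03, -1.97, -1.82, -1.89 and -2.09 on replicates 1 to 5. The 5 arrays lay within a narrow band, all near 4-fold lower in P114. The mean was -1.96 ± 0.0754 (SE, n = 5), 3.89-fold lower, with an adjusted p of 4.3e-05 (limma), in a pair in which 7.3% of all genes were called, 3.32% higher and 3.98% lower in P114. The array SD of 0.109 was small: 9.86% of genes had a smaller one in this pair.

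B2M in CMT-U229 over CMT-U335 stood at 3.55, 2.59, 2.52, 1.33 and 1.59 on replicates 1 to 5. It was higher in CMT-U229 on every array, but by unequal amounts. The mean was 2.32 ± 0.31 (n = 5), 4.98-fold higher, with an adjusted p of 0.00283 (limma), in a pair with 17.3% of genes called, 8.77% higher and 8.58% lower in CMT-U229. Here the SD of 0.888 was larger than that of 97.8% of genes. The apparent couples lay close to each other, with replicates 2 and 3 apart by 0.0656 and replicates 4 and 5 by 0.264. Without replicates 2 and 3 the mean was 2.16 and the adjusted p 0.0657 (limma), the one alternative of 19 that lost the call.

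P114 and CMT-U335 differed less in B2M. The ratios of P114 over CMT-U335 were 0.54, 1.49, 0.28, 0.49 and 0.27 on replicates 1 to 5. All were above 0, and replicate 2 stood well above the other arrays. The mean was 0.62 ± 0.18 (n = 5), 1.53-fold higher in P114, with an adjusted p of 0.0452 (limma), where 22.3% of genes were called, 7.89% higher and 14.4% lower in P114. Without replicate 2 the mean was 0.40 with an adjusted p of 0.0287, and with the couples averaged it was 0.76 with an adjusted p of 0.0998. The call was lost in 14 of 19 alternatives, and the mean stayed above 0 in all of them.

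The 2 B2M probes gave nearly the same picture. On 13 of 15 arrays they differed by under 0.2, with a median difference of 0.0966 and a largest one of 0.322. Probe 6255 had means of 0.57, -1.90 and 2.35 and probe 21021 means of 0.67, -2.03 and 2.28 in P114 over CMT-U335, P114 over CMT-U229 and CMT-U229 over CMT-U335. The spread between arrays was thus seen with both probes.

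OAS2 was lowest in the osteosarcoma line CMT-U335. In P114 over CMT-U335 it stood at 3.00, 1.46, 2.30, 1.81 and 2.11 on replicates 1 to 5. Every array showed more OAS2 in P114, from 2.75-fold on replicate 2 to 8.01-fold on replicate 1. The mean was 2.14 ± 0.20 (n = 5), 4.39-fold higher, with an adjusted p of 0.000467 (limma), and no alternative removed this call (adjusted p between 8.5e-06 and 0.00719).

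OAS2 in CMT-U229 over CMT-U335 stood at 3.10, 0.78, 0.84, 1.38 and 1.23 on replicates 1 to 5. Replicate 1 was far above the other arrays, and all 5 were above 0. The mean was 1.47 ± 0.33 (n = 5), 2.77-fold higher in CMT-U229, with an adjusted p of 0.0226 (limma). Without replicate 1 the mean was 1.06 with an adjusted p of 0.00364. With the couples averaged the mean was 1.74 with an adjusted p of 0.0897, and 7 of 18 alternatives lost the call.

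No OAS2 difference between P114 and CMT-U229 was called. The ratios of P114 over CMT-U229 were 0.77, -0.48, 1.00, 0.95 and -0.52 on replicates 1 to 5. Replicates 1, 3 and 4 had more OAS2 in P114, and replicates 2 and 5 had less. The mean was 0.34 ± 0.27 (n = 5; limma, adjusted p = 0.616), with a 95% interval from -0.28 to 0.97. The couple of replicates 1 and 3 differed by 0.235 and the couple of replicates 2 and 5 by 0.0425, each with opposite dyes. Without replicates 2 and 5 the mean was 0.91 with an adjusted p of 0.0197, and without replicates 1 and 3 it was -0.02 with an adjusted p of 0.998. Both settings were chosen after the data were seen.

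**Figure D1:**
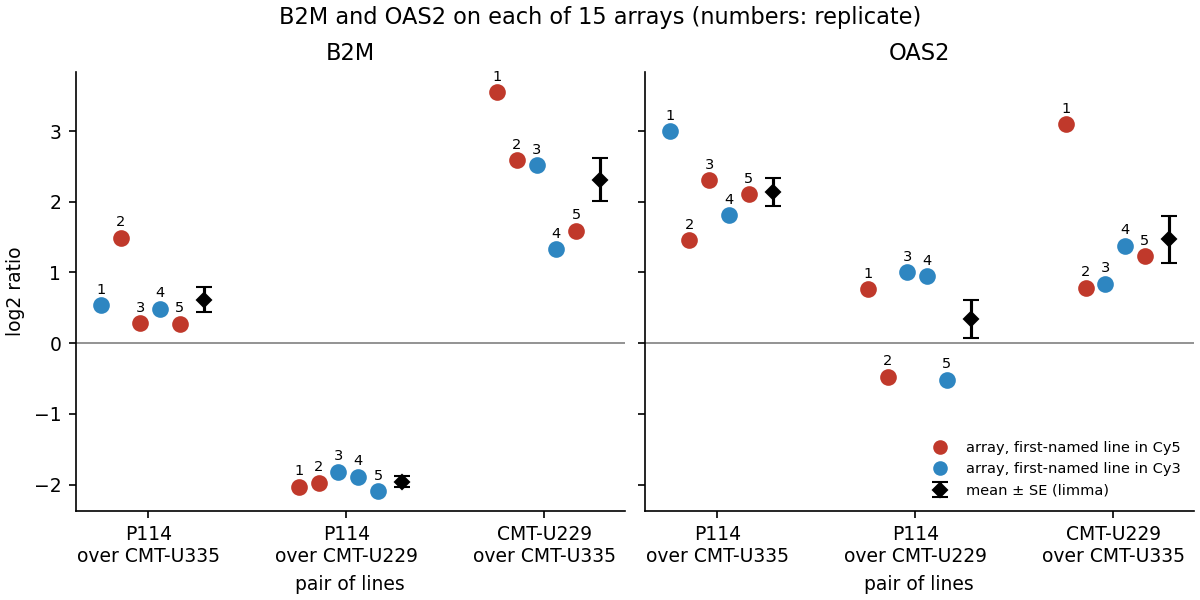
Log2 ratio (vertical axis) of B2M and OAS2 on each array, for the 3 pairs of lines, with the first-named line over the second. Points are arrays with their replicate number, red where the first-named line was in Cy5 and blue where it was in Cy3, and black diamonds are limma means with SE (n = 5). B2M lies between -2.09 and -1.82 in P114 over CMT-U229 on every array, whereas OAS2 lies on both sides of 0 there.

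No dye effect was called for either gene. For B2M the mean was 2.58 on the 3 arrays with CMT-U229 in Cy5 and 1.92 on the 2 with it in Cy3, in CMT-U229 over CMT-U335. For OAS2 the same pair gave 1.71 and 1.11. The dye effect of Cy5 over Cy3 had adjusted p-values between 0.746 and 0.949 for B2M and between 0.780 and 0.904 for OAS2 in the 3 pairs (limma with a dye term).

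Because the lines formed a loop, each direct ratio could be set against the sum of the other pairs. For B2M the direct ratio of P114 over CMT-U335 was 0.62 and the indirect one 0.36, a difference of 0.26 ± 0.42 (limma, adjusted p = 1.00). For OAS2 they were 2.14 and 1.81, a difference of 0.32 ± 0.55 (adjusted p = 1.00). Over all 5246 genes limma called 0 for loop closure, and 17 had an unadjusted p under 0.05. A well-sized test of a closed loop would give a share of genes near 0.05, and 17 is far below that. The test was thus too cautious, and the lack of a call does not show that direct and indirect ratios match.

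The fit over all 15 arrays placed each line against the mean of the 3 lines. For B2M, P114 lay at -0.45 ± 0.11, CMT-U229 at 1.43 ± 0.11 and CMT-U335 at -0.98 ± 0.11 (SE). The order was CMT-U229, P114, CMT-U335, and the step between P114 and CMT-U335 is the one whose call many alternatives lost. For OAS2, P114 lay at 0.83 ± 0.15, CMT-U229 at 0.37 ± 0.15 and CMT-U335 at -1.20 ± 0.15. In that order the neighbours P114 and CMT-U229 did not differ beyond their spread (0.45 ± 0.25 in this fit, limma, adjusted p = 0.264). CMT-U335 was set apart from both in this fit, which takes all 15 arrays as separate samples. For OAS2 in CMT-U229 over CMT-U335, 7 of 18 alternatives to the main fit lost the call.

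**Figure D2:**
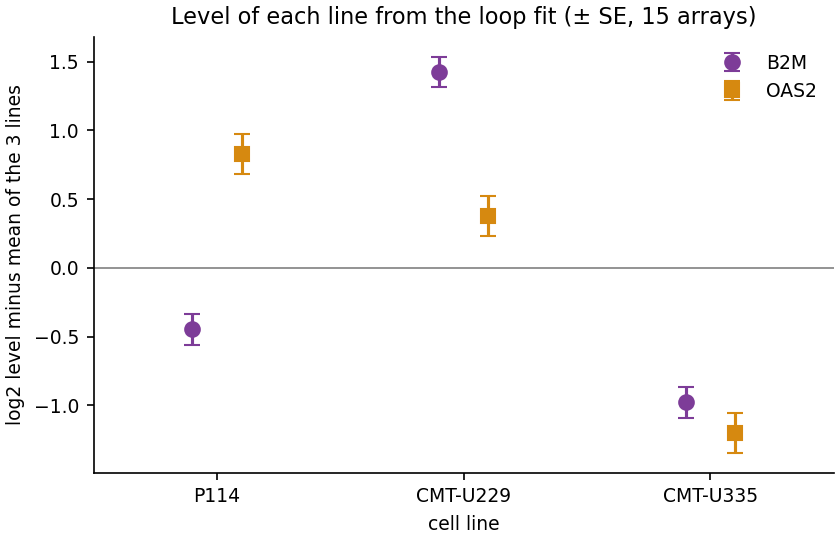
Relative log2 level of B2M (circles) and OAS2 (squares) in each cell line, as the difference from the mean of the 3 lines in 1 fit over 15 arrays, with SE. The point of CMT-U335 is the lowest for both genes, B2M is highest in CMT-U229, and for OAS2 the points of P114 (0.83) and CMT-U229 (0.37) are close.

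The list of class I presentation had 17 measured genes of 31, B2M included. In P114 over CMT-U229, DLA88 and B2M were called lower and none higher, where 3.98% of all genes were called lower and 3.32% higher, with a list median of -0.15 beside -0.01 over all genes. DLA88 encodes a canine class I heavy chain, the partner of B2M, and stood at -1.05 ± 0.24 (n = 5; limma, adjusted p = 0.0453). Class I heavy chains form a family of similar sequences, so a spotted cDNA may bind several of them, and the second heavy chain measured, DLA-79, stood at 0.14 with no call. The call of DLA88 was lost in 10 of 18 alternatives.

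In CMT-U229 over CMT-U335, 4 class I genes were called higher and none lower, where 8.77% of all genes were called higher and 8.58% lower, with a list median of 0.02 beside -0.01 over all genes. Beside B2M these were chaperones of the endoplasmic reticulum that help fold many proteins, among them class I chains: PDIA3 at 1.28 ± 0.13, calreticulin, CALR, at 0.78 ± 0.11 and calnexin, CANX, at 0.43 ± 0.10 (limma, adjusted p = 0.000996, 0.00432 and 0.0276). The call of CANX was lost in 8 of 18 alternatives. DLA88 was at 0.43 ± 0.39 and not called. The peptide transporter genes TAP1 and TAP2 were at -0.40 and 0.02, and the immunoproteasome genes PSMB8 and PSMB9 at -0.03 and 0.28, none of them called.

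In P114 over CMT-U335, B2M and PDIA3 (0.99 ± 0.13) were called higher, and TAP1 (-0.41 ± 0.0750) and RFXANK (-0.44 ± 0.0952) lower. RFXANK is a subunit of the RFX factor that binds the promoters of class I, B2M and class II genes. The list median was -0.01 beside -0.02 over all genes, and 4 of 17 called is near the 22.3% of all genes called in this pair. Of other class I-like genes, the neonatal Fc receptor gene FCGRT ranged from -0.30 to -0.03 over the 3 pair means. AZGP1, whose protein is class I-like but is not taken here as a partner of B2M, ranged from -0.08 to 0.02. Neither was called.

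Of 6 class II genes measured, 2, 1 and 1 were called higher and none lower in P114 over CMT-U335, P114 over CMT-U229 and CMT-U229 over CMT-U335, where 7.89%, 3.32% and 8.77% of all genes were called higher. With so few genes nothing is read from these counts. DLA-DQB1, a class II beta chain, was called in P114 over CMT-U335 (0.93 ± 0.10; limma, adjusted p = 0.000821) and in CMT-U229 over CMT-U335 (0.73 ± 0.11; adjusted p = 0.00438). IFI30, a lysosomal thiol reductase induced by interferon-gamma, was called higher in P114 over CMT-U335 (0.53 ± 0.11; adjusted p = 0.0115) and over CMT-U229 (0.38 ± 0.0865; adjusted p = 0.0447), and the second call was lost in 11 of 18 alternatives. The list medians were 0.11, 0.12 and 0.05 in P114 over CMT-U335, P114 over CMT-U229 and CMT-U229 over CMT-U335, and the other 4 genes were not called in any pair.

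OAS2 was the only measured gene of its own list, which named 11 genes of the OAS and RNase L pathway. The probe may bind related OAS transcripts, and this was not tested. Of 72 further interferon-induced genes 6 were measured, of which 2, 1 and 1 were called in P114 over CMT-U335, P114 over CMT-U229 and CMT-U229 over CMT-U335, beside 22.3%, 7.3% and 17.3% of all genes. NMI, which binds STAT factors and MYC proteins and is induced by interferon, was called in every pair: -0.96 ± 0.12 in P114 over CMT-U335, 0.63 ± 0.0812 in P114 over CMT-U229 and -1.53 ± 0.0810 in CMT-U229 over CMT-U335 (limma, adjusted p = 0.00127, 0.00523 and 8.29e-05). Its order, CMT-U335, P114, CMT-U229, was the reverse of that of B2M. SP100, a nuclear body protein, was called only in P114 over CMT-U335, at 0.30 ± 0.0822 (adjusted p = 0.0352), and 13 of 18 alternatives removed that call. IFIT3, TDRD7 and EPSTI1 had pair means between -0.32 and 0.32, and neither they nor ISG15 were called. The list medians were -0.02, -0.08 and 0.02 in P114 over CMT-U335, P114 over CMT-U229 and CMT-U229 over CMT-U335.

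Of 9 measured genes of interferon receptors and signalling, 2 were called in P114 over CMT-U335 and 1 in P114 over CMT-U229, all lower, beside 14.4% and 3.98% of all genes called lower. None was called in CMT-U229 over CMT-U335. JAK1, a kinase at interferon receptors, was lower in P114 than in CMT-U335 (-0.40 ± 0.0776, limma, adjusted p = 0.0094). JAK1 was also lower in P114 than in CMT-U229 (-0.41 ± 0.0938, limma, adjusted p = 0.046), a call lost in 11 of 18 alternatives. IL10RB, a receptor chain shared by interleukin 10 and the lambda interferons, was lower in P114 than in CMT-U335 at -0.56 ± 0.0913 (adjusted p = 0.00452). The other 7, among them the interferon-gamma receptor genes IFNGR1 and IFNGR2, were not called and had pair means between -0.34 and 0.32. The list medians were -0.02, 0.04 and -0.05 in the same order of pairs as above.

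**Figure D3:**
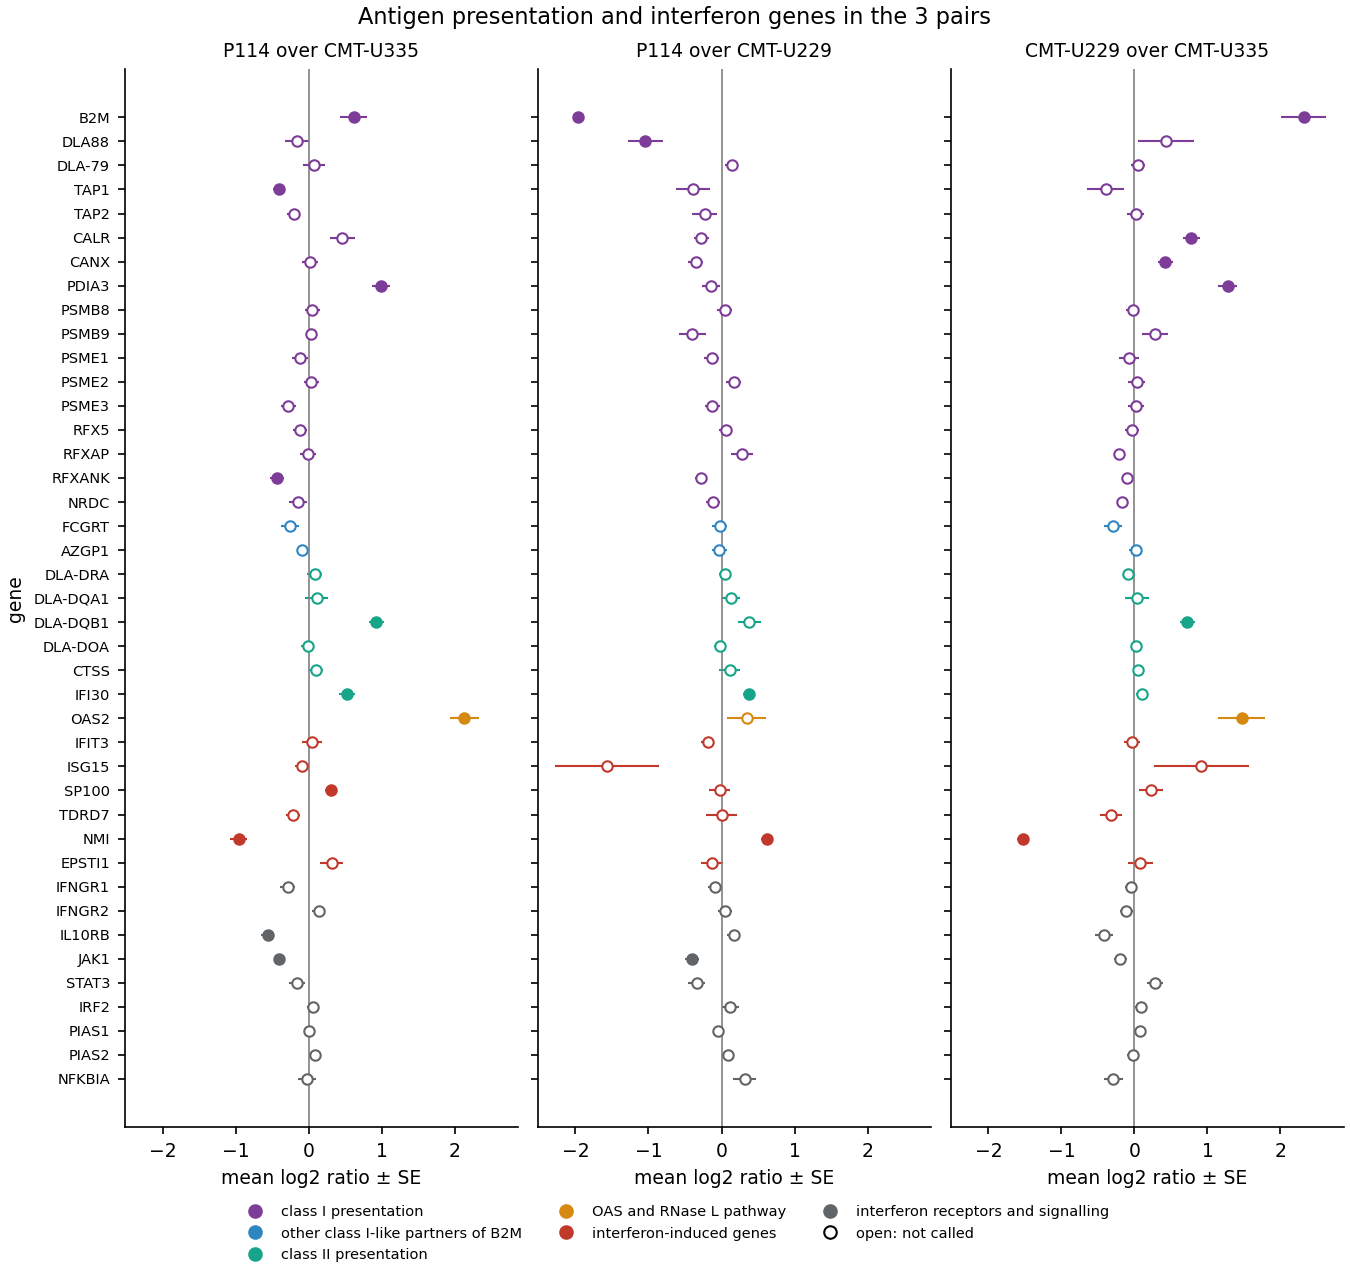
Mean log2 ratio with SE (horizontal axis, n = 5 arrays) of 41 measured genes of antigen presentation and interferon response in the 3 pairs, coloured by list; filled points were called by limma. In CMT-U229 over CMT-U335, B2M lies at 2.32, OAS2 at 1.47 and NMI at -1.53, and ISG15 has wide bars in both pairs with CMT-U229.

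Single arrays held more than the means showed. ISG15 encodes a ubiquitin-like protein that interferon induces; it and PSMB9 were picked out after their values were seen. In P114 over CMT-U229, ISG15 stood at -0.33, -3.36, 0.30, -0.13 and -4.31 on replicates 1 to 5. In CMT-U229 over CMT-U335 it stood at 4.35, 0.04, 0.09, 0.26 and -0.16. On these 3 arrays, all with CMT-U229, the ratio was 10.2-fold, 19.8-fold and 20.4-fold towards CMT-U229, whereas on the other 12 arrays it stayed between -0.41 and 0.30.

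The same arrays are given for 3 class I genes. DLA88 stood at -0.69, -1.55, -0.42, -0.58 and -1.99 in P114 over CMT-U229, and at 2.44, 0.03, 0.10, -0.31 and -0.10 in CMT-U229 over CMT-U335. TAP1 stood at 0.09, -0.89, -0.04, 0.16 and -1.29, and at 0.72, -0.44, -0.27, -0.80 and -1.19, in the same pairs. PSMB9, an interferon-induced proteasome subunit, stood at -0.21, -0.63, 0.05, 0.01 and -1.20, and at 1.15, 0.09, 0.15, -0.07 and 0.07. On each of the 3 arrays with the large ISG15 ratios these genes lay further towards CMT-U229 than on the other arrays of the pair, although the TAP1 ratios of -1.19 and -0.80 on replicates 5 and 4 of CMT-U229 over CMT-U335, away from CMT-U229, were of similar size.

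OAS2 lay further towards CMT-U229 on those arrays as well, with -0.48 and -0.52 on replicates 2 and 5 against 0.77 to 1.00 on the other arrays of P114 over CMT-U229, and 3.10 on replicate 1 of CMT-U229 over CMT-U335. B2M was at its highest, 3.55, on that replicate 1, but on replicates 2 and 5 of P114 over CMT-U229 it lay at -1.97 and -2.09, close to the other arrays at -2.03 to -1.82. The other measured genes of the interferon-induced list were IFIT3, SP100, TDRD7, EPSTI1 and NMI. In that order they stood at 0.00, -0.54, -1.03, 0.42 and 0.72 on replicate 2 of P114 over CMT-U229. On replicate 5 they stood at -0.47, -0.29, 0.14, -0.50 and 0.74. On replicate 1 of CMT-U229 over CMT-U335 they stood at 0.24, 0.86, 0.13, 0.47 and -1.28. Of these genes, only SP100 lay further towards CMT-U229 on each of those arrays than on the other arrays of the pair. In P114 over CMT-U335, which lacks CMT-U229, ISG15 ranged from -0.41 to 0.17. Medians of all 15 arrays as deposited lay between -0.00671 and 0.0134.

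**Figure D4:**
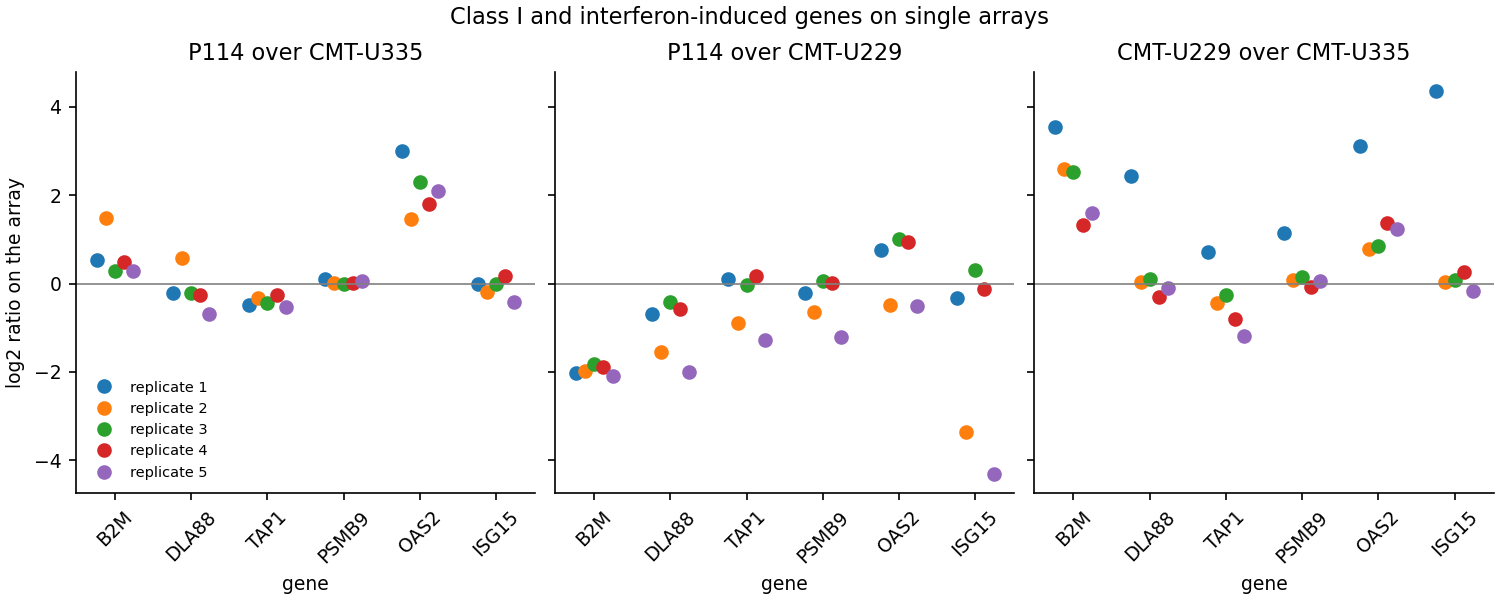
Log2 ratio on each array (vertical axis) of 3 class I genes beside B2M, and of OAS2 and ISG15, in the 3 pairs, coloured by replicate. Replicates 2 and 5 of P114 over CMT-U229 lie lowest for DLA88, TAP1, PSMB9, OAS2 and ISG15, and replicate 1 of CMT-U229 over CMT-U335 lies highest for all 6 genes.

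Likeness to B2M was measured as the uncentred correlation (cosine) over 15 arrays, among 5244 other genes. The most alike were TUSC3 (0.981), an oligosaccharyltransferase subunit, PIR (0.954), MATN2 (0.948), a matrilin of the extracellular matrix, SRPX (0.947) and NABP1 (0.945). TUSC3 stood at 0.87 ± 0.15 in P114 over CMT-U335, at -1.35 ± 0.0951 in P114 over CMT-U229 and at 1.96 ± 0.22 in CMT-U229 over CMT-U335. The genes most alike to OAS2 were EFR3A (0.944), NPM1 (0.944), a nucleolar chaperone, CYC1 (0.940), cytochrome c1 of the respiratory chain, PRELID1 (0.938) and NOP16 (0.936), a nucleolar protein. NPM1 stood at 1.05 ± 0.0960, 0.12 ± 0.15 and 0.87 ± 0.11 in the same order of pairs. B2M and OAS2 had a cosine of 0.467 with each other, which placed OAS2 at rank 767 for B2M. These values describe arrays that share lines and dyes.

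One call was made among the measured neighbours on the chromosome. Per the RefSeq gene table, B2M lies on dog chromosome 30 between the measured genes SPG11 and TERB2, and OAS2 on chromosome 26 between RPL6 and RITA1. SPG11 in CMT-U229 over CMT-U335 was at 0.30 ± 0.11 and TERB2 at -0.12 ± 0.0842, while RPL6 was at 0.20 ± 0.11 and RITA1 at -0.31 ± 0.0969, none of them called. TERB2, a meiotic telomere gene, was called in P114 over CMT-U335 at -0.29 ± 0.0803 (limma, adjusted p = 0.0377), and 11 of 18 alternatives lost that call.

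Markers of leukocytes, which express class I genes strongly, were looked at beside these results. Of 12 measured, CD14 (0.36) was called higher and LCP1 (-0.52) lower in P114 over CMT-U335, CD14 (0.50) was called higher in P114 over CMT-U229, and CD3D (0.46) higher in CMT-U229 over CMT-U335. The shares of all genes called in these pairs were 22.3%, 7.3% and 17.3%. With array scaling or a dye term, 1 marker was called in P114 over CMT-U335, and with array medians set to 0, 3 were. The list medians were 0.08, -0.03 and 0.07 in these pairs. Ratios give no level for any marker, so whether one is near background is unknown, and their part in the results for B2M and OAS2 was not tested.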

How the data were processed

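Per the labels' protocols, RNA was copied to aminoallyl cRNA by T7 polymerase and labelled with Cy5 or Cy3. The deposited log2 ratios were normalized and log transformed by the authors, per the series design text; which normalization, base and numerator they used is not stated. Base 2 was taken because the largest value, 12.43, would mean 249732-fold as a natural log, more than the 65536 steps of a 16-bit scanner. Array medians lay near 0.

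Each array was turned by its dyes to the order of its title. Of 22176 probes, 7694 had 1 gene symbol in the platform annotation, 7340 of them matched by Entrez identifier to RefSeq (UU_Cfam_GSD_1.0). B2M was not matched so and was placed by symbol. Probes of a gene were averaged, and values on at least 3 of 5 arrays were required.

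Pairs were fitted one at a time (limma 3.58.1, R 4.3.3; mean against 0, two-sided); the series design names SAM, for which limma stood in. The fit was tested on simulated data. Genes were named by rule: the members, called list genes (from a list with none, the first 2 by alphabet), the 5 genes most alike to each member, chromosome neighbours, and KRT18, EPCAM, SPP1 and COL1A2. ISG15, PSMB9, PSMB8, TAP2, DLA-79, IFIT3, TDRD7, EPSTI1, IFNGR1, IFNGR2 and the leukocyte markers named were added after their values were seen. The members and lists were chosen with earlier results of these data known. The number of arrays limits the precision. Alternatives are in the closing section.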

Additional observations from a re-analysis of the deposited data

Results flagged for a closer look

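In 5 of 54 sets of 5 arrays, over 18 genes, 1 array lay far from the other 4 by Dixon's criterion. Chance alone does so in about 1 set of 20, but the count is not set against that rate, because 4 of the 5 sets share the same array and 2 of the genes were added for their outlying values. In P114 over CMT-U335, replicate 2 had B2M at 1.49, against 0.27 to 0.54 on the other arrays. TUSC3, the gene most alike to B2M, was not among the 18 genes. It stood at 1.62 on that replicate, against 0.65 to 0.75 on the other arrays. PIR, MATN2, SRPX and NABP1 had no such gap there. In CMT-U229 over CMT-U335, replicate 1 stood apart for OAS2 at 3.10 (others 0.78 to 1.38), DLA88 at 2.44 (others -0.31 to 0.10), ISG15 at 4.35 (others -0.16 to 0.26) and PSMB9 at 1.15 (others -0.07 to 0.15). The added genes were ISG15 and PSMB9.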

How the results depend on the processing

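Alternatives changed array centring or scale, the missing-value filter, probes, dye term, arrays fitted together, couples averaged, a test against a log2 ratio of 0.5, and arrays left out (couples left out were chosen after the data were seen). In P114 over CMT-U335, OAS2 kept its call in all 18, and in P114 over CMT-U229, B2M kept it in all 19. B2M in P114 over CMT-U335 lost its call at 0.63 with array scaling, 0.57 and 0.67 with single probes, 0.60 with a dye term, 0.62 with 1 fit over 15 arrays or the size test, 0.76 with couples averaged, and ranged from 0.40 to 0.77 with arrays left out. B2M in CMT-U229 over CMT-U335 ranged from 2.01 to 2.89 with arrays left out. OAS2 in that pair lost its call at 1.47 as a single probe or in the size test and at 1.74 with couples averaged, and ranged from 1.06 to 1.90. OAS2 in P114 over CMT-U229 turned to -0.0151 without replicates 1 and 3, was called at 0.91 without replicates 2 and 5, and had that range. The cause was not tested.

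Counts called in P114 over CMT-U335 were 2289 probes, 1757 in the loop fit, 192 in the size test and 536 to 1031 with arrays left out. In P114 over CMT-U229 they were 754 probes, 650 in 1 fit, 1056 in the loop fit, 79 with couples averaged, 67 in the size test and 82 to 408 with arrays left out. In CMT-U229 over CMT-U335 they were 1826 probes, 1445 in the loop fit, 410 with couples averaged, 138 in the size test and 328 to 863 with arrays left out. Loop closure stayed uncalled in all 40. Of 1836 values of other named genes 142 lost a call, 30 gained one and 0 were counted as reversed. That count leaves out sign changes of genes called in neither fit. RPL6 in P114 over CMT-U335, for example, changed sign with array scaling and was called in neither fit.

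With the replicate number as a block, B2M in P114 over CMT-U335 stood at 0.62 with an adjusted p of 0.0679 (limma), so its call was lost, and no other call of B2M or OAS2 changed. Deviations of same-numbered arrays correlated between -0.249 and 0.331, with 3 of 15 above 0.1. CMT-U229 is second-named in P114 over CMT-U229 and first-named in CMT-U229 over CMT-U335. Shared RNA would give a negative correlation between those pairs, which a count above 0.1 ignores. The correlations between them were 0.198, 0.057, 0.074, -0.097 and -0.149 on replicates 1 to 5. Shared RNA of P114 or of CMT-U335 would give a positive one. On the same replicates the pairs with P114 had -0.222, 0.331, -0.092, 0.198 and 0.059. The pairs with CMT-U335 had -0.248, 0.0006, -0.249, -0.016 and -0.123. Whether the numbers pair the arrays is thus not settled. Spot intensities were not analysed here, so what signal over background limits is unknown.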

Other observations

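After each pair's mean was taken out of every gene, the deviations of OAS2 over the 15 arrays resembled those of ISG15 most among 5244 genes (r = 0.874). PSMB9 came at rank 6 (0.843), DLA88 at rank 34 (0.729) and TAP1 at rank 45 (0.714). ISG15 and PSMB9 were picked out after their values on these same arrays were seen, so their likeness is no separate evidence. For ISG15 itself, PSMB9 was at rank 2 (0.964), TAP1 at rank 4 (0.924) and DLA88 at rank 8 (0.899). B2M ranked far lower for OAS2 (rank 1318, 0.275), and its own deviations lay closest to those of TUSC3 (0.951), with DLA88 at rank 62 (0.783). These are descriptions over 15 arrays that share lines, dyes and perhaps RNA, and genes outside interferon lists, such as EPRS1 and ZC3H13, ranked beside ISG15 for OAS2.

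The spread of these genes between arrays of a pair was wide. The pooled SD within pairs was 1.65 for ISG15 (rank 42 of 5245 genes), 0.810 for DLA88, 0.782 for OAS2 (rank 163) and 0.593 for B2M (rank 284), where the median gene had 0.237.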
